A study of Mus musculus with 52 samples.

Results

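All-trans retinoic acid (atRA), the vitamin A derivative that activates the retinoic acid receptors, was compared with its vehicle DMSO in mouse intestinal organoids on day 3 of growth from single cells. The 8 libraries of this comparison, of 52 in the series, were chosen by the day and the agent in their titles. The atRA group held 4 libraries and the DMSO group 4, in each case from organoid cultures of the same 2 mice with RNA purified in duplicate, so that n = 2 cultures per group. The mice were male wild-type C57BL/6 littermates of 8 weeks. The atRA group had been given 10 µM atRA from day 0, and the DMSO group the vehicle. Both groups grew until day 3 in a medium with EGF, Noggin and R-spondin to which CHIR99021, an inhibitor of GSK3, the ROCK inhibitor Y-27632 and medium conditioned by Wnt3a cells had been added. The labels set a second dose and the removal of these additions on day 3, and do not say whether RNA was taken before or after. They call the organoids intestinal and name no segment of the gut. Day 3 also had 4 libraries of the same cultures under 5 µM of an RXR antagonist (RXRi), and the atRA and DMSO groups were also sequenced on days 1, 4 and 5.

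Retinoic acid is made inside cells from vitamin A by retinol and retinaldehyde dehydrogenases, and is degraded by enzymes of the CYP26 family. It binds the retinoic acid receptors, which sit on DNA in pairs with a retinoid X receptor. The retinoid X receptors also pair with PPARs, LXRs and FXR, nuclear receptors for fatty acids, oxysterols and bile acids. In the intestine, retinoic acid is known for a part in epithelial differentiation and for shutting off vitamin A uptake through the transcription factor ISX.

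The 4 atRA libraries held 20047786 to 22113858 reads and 15069 to 15165 genes above 0, and the 4 DMSO libraries 21676085 to 25886004 reads and 15245 to 15549 genes. At these depths 3 reads in a gene of 1 kilobase come to 0.136 to 0.15 RPKM with atRA and 0.116 to 0.138 RPKM with DMSO, a floor that covers counting error only. All 13 epithelial markers reached 1 RPKM, and their sum was 7501 to 7780 RPKM with atRA and 8113 to 9533 RPKM with DMSO. Of 19 immune cell markers, 4 reached 1 RPKM in any of the 8 libraries (Lyz2, Itgam, Cd68 and Kit), and their summed level was 23.9 to 27.3 RPKM with atRA and 14.8 to 16.9 RPKM with DMSO, while Cd3d, Cd4, Cd8a, Tyrobp and Nkg7 were at 0. Of 20 mesenchyme markers only Vim reached 1 RPKM, with sums of 2.13 to 2.86 RPKM with atRA and 1.84 to 2.44 RPKM with DMSO, and Col3a1, Dcn and Lum were at 0. Of 14 endothelial markers Esam and Lyve1 did, with sums of 3.09 to 5.49 RPKM with atRA and 4.51 to 6.11 RPKM with DMSO, and Cdh5, Kdr and Emcn were at 0. In RNA of whole cultures, fewer cells of a type and less RNA per cell cannot be told apart.

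On day 3 atRA-treated organoids held more RNA of many PPAR targets, of enzymes and transporters of the mature absorptive cell and of goblet cell genes, and less RNA of genes linked to the fetal-like, regenerating and squamous epithelium. Of 12443 genes tested, 1080 were called at an adjusted p under 0.05 (limma, Benjamini-Hochberg), which is 8.68%. Of these, 538 were higher with atRA (4.32%) and 542 lower (4.36%), and each of the 1080 had the same sign in both cultures. Both cultures entered the call, so the shared sign is no separate support. Likewise, a gap between the libraries of the 2 groups adds no support for a called gene. Duplicates of a culture are not replicates. On the log2(RPKM + 1) scale, 233 genes rose and 130 fell by at least 1, and 18 rose and 1 fell by at least 3. Reads or RPKM of genes near 0 in one group differed by more than this scale shows. The median size of the called log2 fold changes was 0.75, and the effects of the 2 cultures differed by a median of 0.16. The median log2 fold change over all tested genes was -0.04. Two-sided tests used a spread shared by all 13 groups of the series, and 1 near-empty library of the day 1 DMSO group, with 5161 genes above 0, was left out of it. With that library kept, 245 genes were higher and 133 lower, and all 378 of these were among the 1080. Without culture 1 of atRA 318 genes were lower, without culture 2 of atRA 319, and without culture 2 of DMSO 299 were higher and 255 lower. Below, ± is the SD over the 2 cultures for RPKM and the standard error for a log2 fold change, and changes given after "by" or in parentheses are log2 fold changes. They are on the scale of log2(RPKM + 1), which understates changes of low genes, and the p-values measure the spread between cultures of 2 animals.

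**Figure D1:**
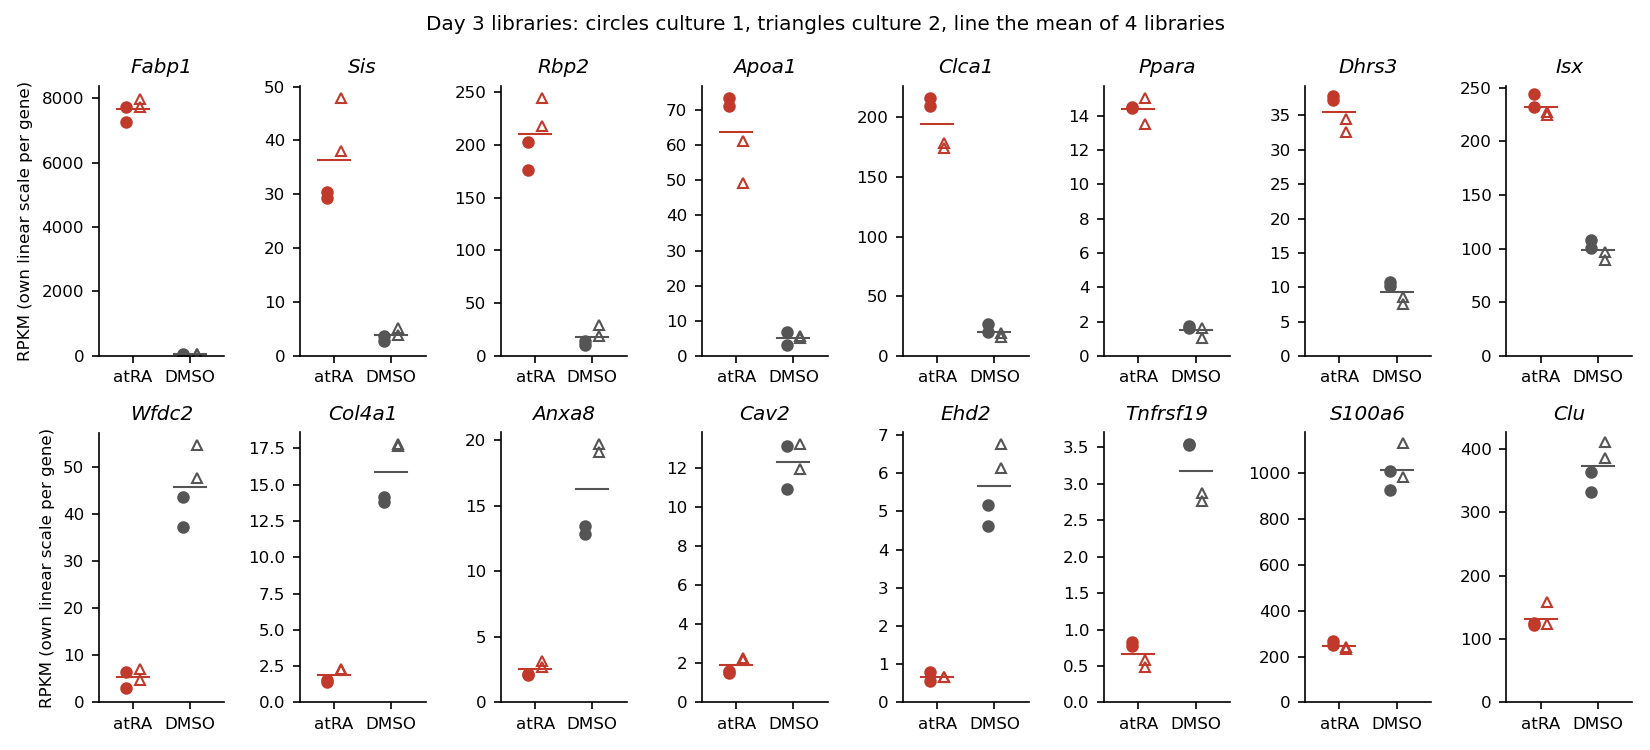
RPKM on day 3 of 8 genes that were higher and 8 that were lower with atRA, with atRA to the left of DMSO, circles for libraries of culture 1, triangles for culture 2, and a line at the mean of the 4 libraries. Each panel has its own linear scale from 0. The 16 genes were chosen among those called, so the gap between the groups follows from that choice.

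Of the 4 receptor genes for retinoic acid tested 0 were called, 0 had an unadjusted p under 0.05 (limma), and 0 were called on recovered reads. Rara, Rarg, Rxra and Rxrb had log2 fold changes of -0.11, -0.21, 0.09 and -0.02, where the signs of Rxra and Rxrb turned under some settings, while Rarb lay below the filter of 1 RPKM in at least 4 libraries. Of the genes known to be induced by retinoic acid, 10 of 22 were tested, 4 were higher and 0 lower, with a median log2 fold change of 0.31. Dhrs3 (chromosome 4, 144892534 to 144928209, GRCm38.p6, as for all positions given here) encodes a reductase that returns retinaldehyde to retinol. It stood at 37.8, 37.3, 32.6 and 34.5 RPKM in the atRA libraries, against 10.2, 10.7, 7.56 and 8.64 RPKM in the DMSO libraries. The groups were far apart, and the log2 fold change was 1.84 ± 0.18 (adjusted p = 3.4e-06, limma). Isx, the homeobox factor that represses vitamin A uptake genes, was at 244, 232, 227 and 224 RPKM in the atRA libraries, against 101, 108, 89.1 and 96.7 RPKM in the DMSO libraries. Every atRA library lay above every DMSO library, with a log2 fold change of 1.23 ± 0.14 (adjusted p = 1.1e-05).

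Cyp26b1 (chromosome 6, 84571414 to 84593908), which degrades retinoic acid, had 145 to 450 reads with atRA and 2 to 6 with DMSO. Its level was 2.78 ± 1.37 RPKM with atRA and 0.0367 ± 0.0158 RPKM with DMSO, and its log2 fold change 1.81 ± 0.34 (adjusted p = 0.002), on a scale that holds down the change of so low a gene. The Cyp26b1 call ended in a fit of the 2 groups of day 3 alone. The transglutaminase Tgm2, a long-known retinoic acid target, was higher by 0.55 ± 0.10. Cyp26a1 and Crabp2, both classical targets, lay below the filter. The calls of Isx and Tgm2 ended when the near-empty library was kept (adjusted p = 0.65 for Isx and 0.35 for Tgm2).

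Some genes of vitamin A handling rose. Of 22 tested, 8 were higher and 1 lower, with a median log2 fold change of 0.26. Rbp2 (chromosome 9, 98490537 to 98509771) encodes the retinol-binding protein of the enterocyte. It was at 177, 203, 218 and 244 RPKM in the atRA libraries, against 10.7, 14.3, 18.8 and 29.2 RPKM in the DMSO libraries, so the lowest atRA library was several times above the highest DMSO library, and its log2 fold change was 3.54 ± 0.44 (adjusted p = 3.7e-05). The retinol-oxidising alcohol dehydrogenase Adh1 had 90.4 ± 35.3 RPKM with atRA and 9.91 ± 5.27 RPKM with DMSO (3.13 ± 0.31). Adh1 lost its call in a fit of the 2 groups of day 3 alone. Its relative Adh4 had 126 to 277 reads with atRA and 1 to 10 with DMSO (2.71 ± 0.22). The retinaldehyde dehydrogenase Aldh1a1, which makes retinoic acid, had 68.3 ± 13.1 RPKM with atRA and 9.91 ± 1.30 RPKM with DMSO (2.66 ± 0.30), and Aldh1a7, a close relative of it, 15.4 ± 1.13 RPKM with atRA and 3.91 ± 0.152 RPKM with DMSO (1.75 ± 0.15). Reads of such near-identical dehydrogenases may have been split between them.

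The carotenoid-cleaving oxygenase Bco2 had 7.21 ± 0.856 RPKM with atRA and 0.732 ± 0.142 RPKM with DMSO (2.24 ± 0.26). Also higher were the retinol saturase Retsat (1.19 ± 0.19) and the acyltransferase Dgat1 (0.97 ± 0.21). Rdh10, which oxidises retinol on the way to retinoic acid, was the member that fell, with 44.3 ± 7.70 RPKM with atRA and 82.3 ± 9.17 RPKM with DMSO (-0.89 ± 0.19, adjusted p = 0.0053). Scarb1, a carotenoid and lipid receptor that ISX represses, was not called (-0.71 ± 0.23, adjusted p = 0.076). Bco1, another carotenoid-cleaving oxygenase, had a positive log2 fold change of 0.20 and was not called. Lrat, which esterifies retinol for storage, had a log2 fold change of -0.05 ± 0.11 and was not called either. The calls of Retsat and Rdh10 ended with the near-empty library kept. That of Rdh10 also ended without culture 1 of atRA or culture 2 of DMSO, and that of Dgat1 without culture 1 of DMSO.

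Targets of the PPARs, the fatty acid receptors, were the list with the most calls. Of 46 tested members 32 were higher and 0 lower, all 46 log2 fold changes were positive, and their median was 1.11, against -0.04 over all tested genes. Fabp1 (chromosome 6, 71199879 to 71205034), the cytosolic fatty acid-binding protein of liver and gut, was at 7273, 7716, 7717 and 7982 RPKM in the atRA libraries, against 40.2, 61.8, 48.0 and 72.5 RPKM in the DMSO libraries. It was the most abundant gene of the table in all 4 atRA libraries and ranked 1189 to 2184 in the DMSO libraries. The log2 fold change of 7.12 ± 0.36 (adjusted p = 2.3e-09) was the largest of all genes tested on the log2(RPKM + 1) scale. Ppara, the receptor itself, was at 14.5, 14.4, 13.5 and 15.0 RPKM in the atRA libraries, against 1.64, 1.75, 1.05 and 1.60 RPKM in the DMSO libraries. Its groups did not come near each other (2.62 ± 0.15, adjusted p = 8.5e-09).

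Promoter sequence is shown for Fabp1 and Rbp2, whose RNA was abundant and rose on day 3 and which lie on chromosome 6 and chromosome 9 of GRCm38.p6, the RefSeq assembly of the mm10 series. Capitals mark the match to a motif, and each run ends with the base before the annotated start. For Fabp1 the run is chr6:71199759-71199878 on the plus strand, with a match on the opposite strand to AGGNCANAGGNCA, a direct repeat of the nuclear receptor hexamer with one base between, the arrangement bound by PPAR and RXR pairs. For Rbp2 it is chr9:98490417-98490536 on the plus strand, with CAAAGGTCA, the hexamer AGGTCA extended by CAA, also on the opposite strand.
Fabp1: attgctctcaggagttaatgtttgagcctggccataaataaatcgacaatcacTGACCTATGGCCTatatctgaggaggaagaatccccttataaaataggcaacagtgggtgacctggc
Rbp2: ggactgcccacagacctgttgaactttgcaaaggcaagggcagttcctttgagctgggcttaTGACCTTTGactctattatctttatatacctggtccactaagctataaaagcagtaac
The Fabp1 match lies 67 to 55 bases and the Rbp2 match 58 to 50 bases before the start. Each gene is shown with the motif that it matched, so these 2 matches follow from that choice. Both motifs were searched on both strands in the 250 bases before the start, in genes with a promoter entry only. The direct repeat was found in 108 of 27025 genes with an entry (0.4%) and in 35 of 9792 tested genes with an entry (0.357%). Of 195 called genes with an entry that rose by at least 1 on the log2(RPKM + 1) scale, 4 had it (2.05%). These were Apoc2, Entpd8, Fabp1 and Pbld1. The extended hexamer was in 131 of 27025 genes (0.485%), in 42 of 9792 tested genes (0.429%) and in 6 of the 195 (3.08%), Rbp2 among them. The shares of the 195 thus count the genes shown, and differences between shares were not tested. Of 39 listed PPAR targets with an entry, 1 had the repeat (Fabp1, 2.56%) and 1 the hexamer (Acot4, 2.56%). Both sets of letters overlap in AGGTCA, and a match describes the letters in this window only.

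The same list held genes of fuel choice and fatty acid breakdown. Pdk4, the kinase that shuts pyruvate out of the citric acid cycle, had 3931 reads in the 4 atRA libraries and 10 in the 4 DMSO libraries (3.83 ± 0.29 on the log2(RPKM + 1) scale, adjusted p = 2e-07). Cyp4a10, an omega-hydroxylase of fatty acids, had 449 to 533 reads per library with atRA and 0 to 2 with DMSO (3.28 ± 0.13). It belongs to a cluster of near-identical genes, so reads may have been shared with its neighbours. Creb3l3, a membrane-bound transcription factor of lipid metabolism, had 25.4 ± 0.955 RPKM with atRA and 0.828 ± 0.0996 RPKM with DMSO (3.88 ± 0.31).

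Of the enzymes of beta-oxidation, the trifunctional protein subunit Hadha had 116 ± 2.70 RPKM with atRA and 50.7 ± 1.04 RPKM with DMSO (1.18 ± 0.07) and the enoyl-CoA isomerase Eci2 94.1 ± 9.77 RPKM with atRA and 30.3 ± 1.81 RPKM with DMSO (1.60 ± 0.10). The thioesterases Acot1 and Acot2, near-identical neighbours, rose by 2.66 ± 0.27 and 2.81 ± 0.25. Cpt1a, the gate for long-chain fatty acids into mitochondria, had 85.2 ± 2.72 RPKM with atRA and 28.3 ± 1.61 RPKM with DMSO (1.56 ± 0.09, adjusted p = 6.9e-09), a call that ended with the near-empty library kept. In the wider list of fatty acid synthesis, 3 of 17 tested members were higher and 0 lower. These were Acacb, whose product malonyl-CoA holds back Cpt1a, the malic enzyme Me1 and the desaturase Scd2, at 2.19 ± 0.18, 1.40 ± 0.19 and 0.54 ± 0.15. The Scd2 call ended with the near-empty library kept and without any one culture but culture 1 of DMSO. It also ended in fits of the 2 or the 3 groups of day 3 alone. Of 25 tested genes of cholesterol synthesis 0 were called (median log2 fold change -0.12), 3 had an unadjusted p under 0.05 (limma), and 0 were called on recovered reads.

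**Figure D2:**
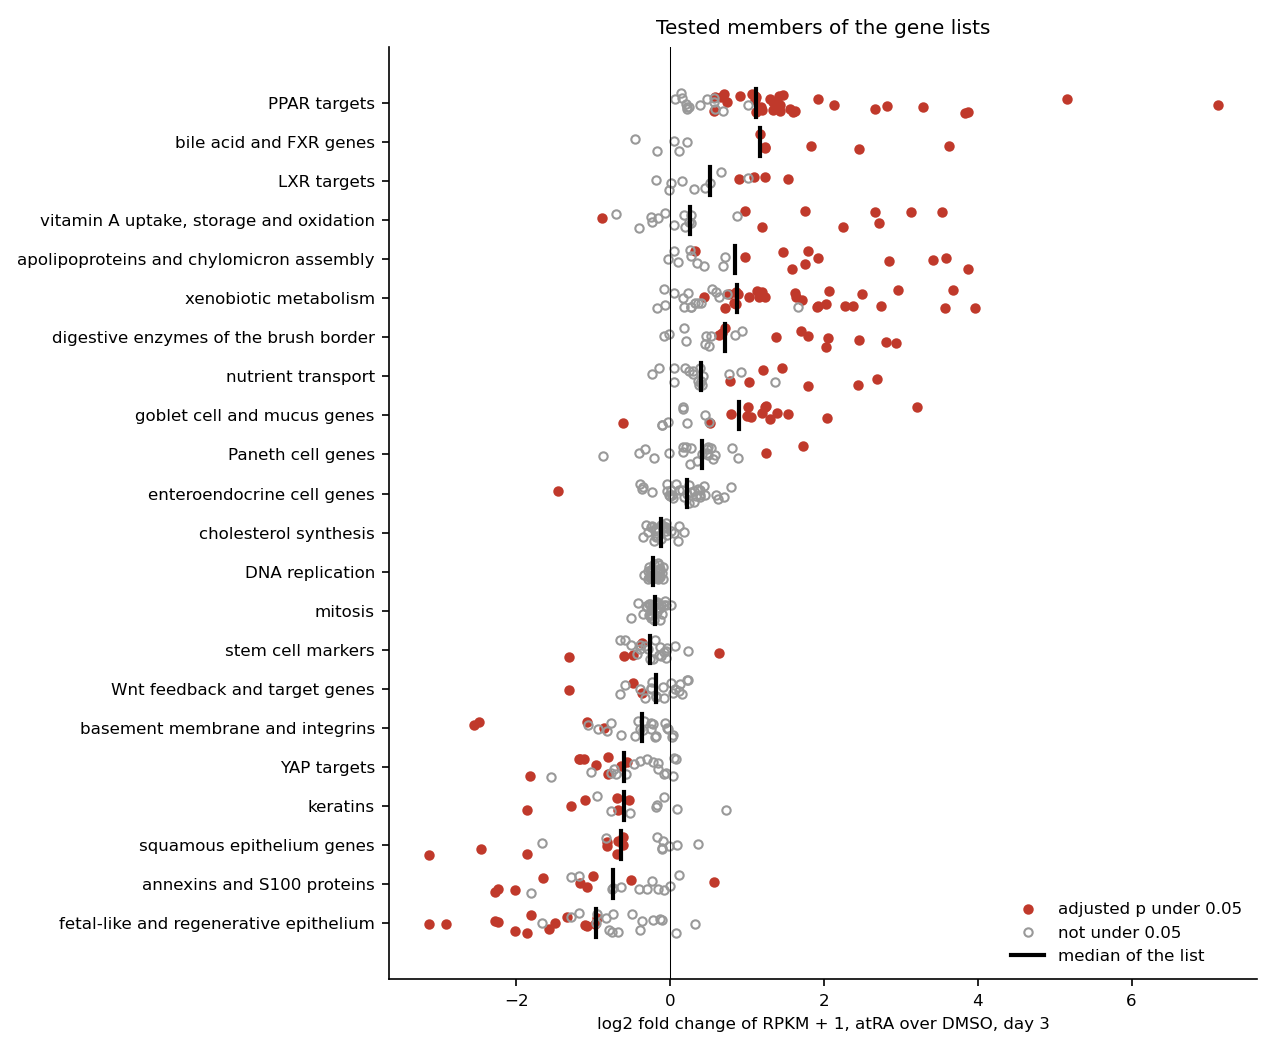
Log2 fold change of atRA against DMSO on day 3 for the tested members of 22 gene lists, with called genes in red, other genes as open grey points and the median of each list as a black bar. The PPAR targets, xenobiotic metabolism, goblet cell and apolipoprotein lists lie mostly above 0, and the fetal-like, squamous and annexin lists mostly below it.

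Some genes of bile acid and sterol handling rose. Of 11 tested genes of the bile acid receptor FXR and of bile acid transport, 6 were higher and 0 lower, with a median log2 fold change of 1.17. Nr1h4, which encodes FXR, had 15.1 ± 0.111 RPKM with atRA and 5.84 ± 0.704 RPKM with DMSO (1.23 ± 0.13, adjusted p = 4.1e-06). Its targets Slc51a and Slc51b form the exporter of bile acids into blood. Slc51a had 6.32 ± 0.0648 RPKM with atRA and 1.06 ± 0.136 RPKM with DMSO (1.83 ± 0.26), and Slc51b had 120 to 162 reads per library with atRA and 1 to 4 with DMSO (3.63 ± 0.25). Abcc2, an export pump of conjugates, rose by 1.24 ± 0.23. Fgf15, the hormone that tells the liver to stop bile acid synthesis, had 63.7 ± 5.11 RPKM with atRA and 10.9 ± 1.34 RPKM with DMSO (2.45 ± 0.66, adjusted p = 0.028), and the ileal bile acid-binding protein Fabp6 had 69 reads in the 4 atRA libraries and 6 in the 4 DMSO libraries (1.17 ± 0.32, adjusted p = 0.027). The calls of Fgf15 and Fabp6 ended without any one of the 4 cultures and with the near-empty library kept.

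Among targets of the oxysterol receptor LXR, 4 of 13 were higher and 0 lower (median 0.52). Abcg5 and Abcg8 together form the pump that returns plant sterols and cholesterol to the gut lumen. Abcg5 had 52.5 ± 6.20 RPKM with atRA and 17.4 ± 0.325 RPKM with DMSO (1.54 ± 0.23) and Abcg8 28.8 ± 0.202 RPKM with atRA and 11.6 ± 0.305 RPKM with DMSO (1.24 ± 0.19). Npc1l1, the cholesterol uptake protein that works against that pump, was also higher, at 23.5 ± 2.16 RPKM with atRA and 12.2 ± 1.25 RPKM with DMSO (0.89 ± 0.16, adjusted p = 0.0016), a call that ended with the near-empty library kept. Of 7 tested vitamin D targets 0 were called (median 0.01), 2 had an unadjusted p under 0.05 (limma), and 0 were called on recovered reads.

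Genes of fat packaging also rose. Of 20 tested genes of apolipoproteins and chylomicron assembly, 11 were higher and 0 lower, with a median log2 fold change of 0.84. Apoa1, the main protein of high-density lipoprotein, was at 71.1, 73.3, 49.2 and 61.1 RPKM in the atRA libraries, against 3.16, 6.84, 5.00 and 5.55 RPKM in the DMSO libraries. Its atRA libraries lay an order of magnitude above the DMSO libraries (3.42 ± 0.24, adjusted p = 6.7e-08). Apoa4, secreted with chylomicrons, had 35.8 ± 14.4 RPKM with atRA and 2.03 ± 0.111 RPKM with DMSO (3.59 ± 0.45), and Apoc2, the activator of lipoprotein lipase, 27.1 ± 2.44 RPKM with atRA and 2.93 ± 0.415 RPKM with DMSO (2.85 ± 0.27). Mttp, which loads lipid onto apolipoprotein B, had 184 ± 15.0 RPKM with atRA and 48.0 ± 7.82 RPKM with DMSO (1.92 ± 0.17). Tm6sf2, needed for the lipid load of these particles, was higher by 1.79 ± 0.21.

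The digestive enzymes of the brush border, the apical surface of the absorptive cell, were higher in 11 of 21 tested cases and lower in 0, with a median of 0.72. Sucrase-isomaltase Sis was at 29.4, 30.4, 38.1 and 47.9 RPKM in the atRA libraries, against 2.84, 3.71, 3.79 and 5.10 RPKM in the DMSO libraries. The groups did not overlap (2.94 ± 0.22, adjusted p = 1.9e-07). The intestinal alkaline phosphatase Alpi had 64.3 ± 0.946 RPKM with atRA and 8.52 ± 1.70 RPKM with DMSO (2.80 ± 0.17). Akp3, a near-identical copy with which it may have shared reads, had 35.3 ± 2.90 RPKM with atRA and 5.78 ± 1.61 RPKM with DMSO (2.45 ± 0.21). The peptidases Mep1b and Enpep rose by 2.03 ± 0.14 and 1.70 ± 0.24. Without culture 2 of DMSO, 7 members of this list were called.

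Of 24 tested nutrient transporters, 7 were higher and 0 lower (median 0.41). The sugar carriers led: Slc2a2, the glucose exporter GLUT2, had 6.66 ± 1.78 RPKM with atRA and 0.405 ± 0.212 RPKM with DMSO (2.44 ± 0.29), and Slc2a5, the fructose carrier GLUT5, 9.63 ± 2.09 RPKM with atRA and 0.667 ± 0.395 RPKM with DMSO (2.69 ± 0.49). Slc5a1, the sodium-coupled glucose uptake carrier, had 51.9 ± 4.30 RPKM with atRA and 29.7 ± 1.73 RPKM with DMSO and a smaller change (0.78 ± 0.19, adjusted p = 0.011), a call that ended with the near-empty library kept, without culture 1 of atRA and without culture 2 of DMSO. The amino acid carrier Slc7a9 and its partner subunit Slc3a1 rose by 1.21 ± 0.18 and 1.03 ± 0.19, where the Slc3a1 call ended with the near-empty library kept. Fabp2, the second fatty acid-binding protein of the enterocyte, had 228 ± 23.6 RPKM with atRA and 59.9 ± 9.03 RPKM with DMSO (1.92 ± 0.33, adjusted p = 0.001).

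The list of fructose breakdown, glucose production and glycolysis had 6 of 25 tested genes higher and 0 lower, around a median of -0.03. G6pc, which releases free glucose, had 309 to 536 reads per library with atRA and 2 to 16 with DMSO (3.03 ± 0.37). Fbp1, an enzyme of glucose production, rose by 1.08 ± 0.22. Khk, the first enzyme of fructose breakdown, had 47.5 ± 4.49 RPKM with atRA and 19.2 ± 0.812 RPKM with DMSO (1.26 ± 0.26, adjusted p = 0.0043), a call that ended with the near-empty library kept and without culture 1 of atRA, as did that of Fbp1, which also ended without culture 2 of DMSO. The list had 3 higher genes with that library kept, 2 without culture 1 of atRA and 3 without culture 2 of DMSO. Genes of microvillus structure were higher in 5 of 22 cases and lower in 0 (median 0.19). The protocadherin Cdhr5 and its scaffold Ush1c rose by 0.76 ± 0.22 and 0.51 ± 0.12. With the near-empty library kept, or without culture 2 of either group, 2 members were called, and in each of these cases neither Cdhr5 nor Ush1c was among them. Without culture 1 of atRA 3 were called. Cdhr5 was also not called without culture 1 of either group.

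Xenobiotic metabolism had 27 of 44 tested genes higher and 0 lower, with a median log2 fold change of 0.87. The cytochrome P450 Cyp2b10, the classical target of the receptor CAR, was at 43.6, 45.7, 56.6 and 62.1 RPKM in the atRA libraries, against 1.47, 2.64, 3.66 and 5.78 RPKM in the DMSO libraries. It was low in each DMSO library (3.68 ± 0.46, adjusted p = 3.8e-05). The carboxylesterase Ces1f had 27.7 ± 6.32 RPKM with atRA and 0.817 ± 0.204 RPKM with DMSO (3.97 ± 0.25), the flavin monooxygenase Fmo5 31.3 ± 3.51 RPKM with atRA and 1.72 ± 0.272 RPKM with DMSO (3.58 ± 0.17) and the alcohol dehydrogenase Adh6a 96.7 ± 32.4 RPKM with atRA and 9.13 ± 6.70 RPKM with DMSO (3.41 ± 0.31). Adh6a was not called in a fit of the 2 groups of day 3 alone. Cyp2c66 and the glutathione transferases Gstm1 and Gstm3 rose by 2.97 ± 0.23, 1.91 ± 0.21 and 2.74 ± 0.29. All of these belong to families of close copies, so reads may have been shared and single members are uncertain. Of the receptors, Nr1i2, which encodes PXR, had 32.5 ± 0.0634 RPKM with atRA and 21.3 ± 0.892 RPKM with DMSO (0.59 ± 0.11, adjusted p = 0.0011), a call that ended with the near-empty library kept.

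Of 33 intestinal transcription factors 7 were higher and 0 lower (median 0.05), against 4 higher with the near-empty library kept. Creb3l3, Isx, Ppara, Nr1h4 and Nr1i2, all given above, were among the 7 higher genes. Hnf4g, an activator of enterocyte genes, was among them (0.99 ± 0.18, adjusted p = 0.0012; the call ended with the near-empty library kept). Its relative Hnf4a had 221 ± 4.23 RPKM with atRA and 190.2 ± 8.08 RPKM with DMSO and was not called (0.22 ± 0.09), nor were the intestinal identity factors Cdx2 (-0.04 ± 0.12) and Cdx1 (-0.08 ± 0.22), whose signs depend on the setting. Ion and fluid transport had 11 of 24 genes higher and 0 lower (median 0.49), 5 of them with the near-empty library kept. Slc26a3, the chloride-bicarbonate exchanger of the gut surface, had 31.0 ± 3.48 RPKM with atRA and 6.65 ± 0.200 RPKM with DMSO (2.07 ± 0.17), and the sodium-proton exchanger Slc9a3 6.49 ± 0.829 RPKM with atRA and 1.15 ± 0.138 RPKM with DMSO (1.80 ± 0.23). Cps1, the first enzyme of the urea cycle, had 323 ± 15.1 RPKM with atRA and 166 ± 6.40 RPKM with DMSO (0.96 ± 0.13).

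Among the secretory lineages most calls fell to goblet cells. Goblet cell and mucus genes were higher in 13 of 22 tested cases and lower in 1, with a median of 0.90. Clca1, a secreted mucus-modifying protease of goblet cells, was at 216, 209, 178 and 174 RPKM in the atRA libraries, against 19.6, 26.8, 15.5 and 19.5 RPKM in the DMSO libraries. All atRA libraries lay above all DMSO libraries (3.21 ± 0.40, adjusted p = 3.9e-05). Muc2, the main gel-forming mucin, had 4.91 ± 0.721 RPKM with atRA and 1.04 ± 0.0387 RPKM with DMSO (1.53 ± 0.24), Fcgbp, which binds it, 147 ± 13.6 RPKM with atRA and 55.7 ± 4.69 RPKM with DMSO (1.39 ± 0.18), and Zg16, a lectin of the mucus, 32.6 ± 0.209 RPKM with atRA and 7.48 ± 1.23 RPKM with DMSO (2.03 ± 0.22). Agr2, the disulfide isomerase needed to fold mucin, rose by 1.20 ± 0.16. The list had 8 higher calls without culture 1 of atRA, 8 without culture 1 of DMSO and 8 without culture 2 of DMSO.

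Paneth cell genes had 2 of 23 higher and 0 lower (median 0.42), and 1 higher with the near-empty library kept. The 2 were Mmp7 and Guca2b, which is also on the ion and fluid transport list. With that library kept, Guca2b was not called (1.25, adjusted p = 0.2, limma). Mmp7, which activates defensins, had 135 ± 5.13 RPKM with atRA and 40.2 ± 1.91 RPKM with DMSO (1.72 ± 0.33, adjusted p = 0.0025), while the lysozyme Lyz1 had 222 ± 28.6 RPKM with atRA and 126 ± 4.07 RPKM with DMSO and was not called (0.80 ± 0.26, adjusted p = 0.076). Of 33 enteroendocrine genes 0 were higher and 1 was lower (median 0.23). That gene was Gip, the incretin hormone of the upper gut, at 5.03, 5.85, 6.76 and 6.82 RPKM in the atRA libraries, against 18.4, 15.2, 22.0 and 18.8 RPKM in the DMSO libraries. Each atRA library lay below each DMSO library (-1.46 ± 0.25, adjusted p = 0.00077). Chga, Cck and Sct, a granule protein and 2 further hormones, had log2 fold changes of 0.31, -0.35 and 0.04 and were not called. Of 8 tested tuft cell genes 0 were higher and 2 lower: the factor Pou2f3 (-0.50 ± 0.11, adjusted p = 0.0049) and the cyclooxygenase Ptgs1, at 0.0197 ± 0.0279 RPKM with atRA and 1.11 ± 0.166 RPKM with DMSO (-1.05 ± 0.10). The Pou2f3 call ended with the near-empty library kept and without culture 1 of atRA.

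Defence genes split. Of 16 tested, 5 were higher and 2 lower. Leap2, an antimicrobial peptide and ghrelin antagonist, is not on this list. It had 76 to 185 reads per library with atRA and 2 to 7 with DMSO (3.33 ± 0.41). Dmbt1, a scavenger-like mucosal protein, had 553 ± 13.2 RPKM with atRA and 61.8 ± 8.94 RPKM with DMSO (3.18 ± 0.26), and Pigr, the carrier of secreted IgA, 686 ± 14.6 RPKM with atRA and 291 ± 19.4 RPKM with DMSO (1.24 ± 0.12). Nos2, the inducible nitric oxide synthase, was lower, at 0.572 ± 0.161 RPKM with atRA and 2.16 ± 0.524 RPKM with DMSO (adjusted p = 0.012), a call that ended with the near-empty library kept, without culture 2 of atRA and without culture 1 of DMSO. The butyrophilin-like genes Btnl1 and Btnl6, which select gut T cells, rose by 2.45 ± 0.25 and 2.08 ± 0.18.

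Of 19 chemokine and cytokine genes 3 were higher and 5 lower. Ccl25, the gut-homing chemokine, had 59.3 ± 1.61 RPKM with atRA and 17.9 ± 2.03 RPKM with DMSO (1.68 ± 0.17) and the interleukin Il18 18.8 ± 0.398 RPKM with atRA and 5.83 ± 1.14 RPKM with DMSO (1.55 ± 0.23). On the lower side Ccl20 had 1.83 ± 0.508 RPKM with atRA and 4.63 ± 0.363 RPKM with DMSO (adjusted p = 0.0037) and Ccl2 0.212 ± 0.00545 RPKM with atRA and 1.95 ± 0.740 RPKM with DMSO (-1.27 ± 0.18), both attractants of immune cells. The list had 1 lower call with the near-empty library kept and 1 without culture 1 of atRA, and in both cases Ccl20 was not called. It had 3 lower calls without culture 1 of DMSO and 2 without culture 2 of DMSO. The summed immune markers were higher with atRA, as given above, and their part in these values was not tested.

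Most stem cell and Wnt genes were not called, but the share of lower calls on both lists was above the 4.36% of all tested genes. Of 25 tested stem cell markers 1 was higher and 4 were lower, with a median log2 fold change of -0.26. Tnfrsf19, a receptor found on crypt base cells, was at 0.835, 0.777, 0.581 and 0.491 RPKM in the atRA libraries, against 3.55, 3.53, 2.87 and 2.76 RPKM in the DMSO libraries. The atRA libraries all lay below the DMSO libraries (-1.32 ± 0.13, adjusted p = 2.1e-06). Lgr5, the defining stem cell receptor, had 7.21 ± 2.45 RPKM with atRA and 11.9 ± 4.05 RPKM with DMSO and was not called (-0.65 ± 0.24, adjusted p = 0.13), and neither was Olfm4, a secreted stem cell marker (-0.13 ± 0.53). Ephb3, an ephrin receptor of the crypt, was lower (-0.60 ± 0.12). Of 22 Wnt feedback and target genes 0 were higher and 3 lower (median -0.18), all 3 of them also on the stem cell list. Tnfrsf19 and Rnf43 were among them (-0.37 ± 0.11 for Rnf43), while Axin2 was not called (-0.39 ± 0.20). Only 1 lower stem cell gene and 1 lower Wnt gene were called with the near-empty library kept, and neither Ephb3 nor Rnf43 was among them. The stem cell list had 2 lower calls, and the Wnt list 1, without culture 1 of atRA, and likewise without culture 1 or culture 2 of DMSO. Rnf43 also lost its call without any one of the 4 cultures and when the cultures were paired (adjusted p = 0.051).

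No proliferation gene on these lists was called. All 30 DNA replication genes had negative log2 fold changes, between -0.33 and -0.09 with a median of -0.22, and 0 of 30 were called (limma). Of these 30, 0 had an unadjusted p under 0.05, and 0 were called on recovered reads. Mcm2, a subunit of the replicative helicase, had -0.24 ± 0.20, and the proliferation marker Mki67 -0.09 ± 0.18. Of 30 mitosis genes 0 were called (median -0.20), 1 had an unadjusted p under 0.05 (limma), and 0 were called on recovered reads, while the 3 groups of day 3 alone gave 4 lower mitosis genes. Myc, a growth factor-driven transcription factor, had -0.25 ± 0.17.

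The list with the most lower calls was the fetal-like and regenerative epithelium, genes that mark the fetal gut and adult gut under repair. Of 32 tested 0 were higher and 14 lower, with a median of -0.97. Anxa8 (chromosome 14, 34085979 to 34100571), an annexin, was at 2.10, 2.14, 3.19 and 2.70 RPKM in the atRA libraries, against 13.5, 12.9, 19.7 and 19.1 RPKM in the DMSO libraries. The atRA libraries held a fraction of the DMSO level (-2.28 ± 0.26, adjusted p = 1.2e-05). Clu, the secreted chaperone that marks revival stem cells, had 132 ± 12.2 RPKM with atRA and 373 ± 36.2 RPKM with DMSO (-1.49 ± 0.26, adjusted p = 0.001). Msln, the surface protein mesothelin, had 83.4 ± 16.1 RPKM with atRA and 249 ± 33.2 RPKM with DMSO (-1.57 ± 0.34, adjusted p = 0.0066), a call that ended without culture 1 of atRA and without culture 2 of DMSO. Without culture 2 of DMSO, 9 of the list were called.

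Of 26 targets of the mechanosensitive factor YAP, 0 were higher and 9 lower (median -0.60). Ankrd1, a textbook target, had 0.633 ± 0.0231 RPKM with atRA and 4.85 ± 1.14 RPKM with DMSO (-1.82 ± 0.34, adjusted p = 0.0017). Ccn2, a matricellular growth factor, had 13.6 ± 0.805 RPKM with atRA and 31.9 ± 1.54 RPKM with DMSO (-1.17 ± 0.30, adjusted p = 0.021), a call that ended without any one of the 4 cultures and with the near-empty library kept. The list had 3 calls with the near-empty library kept, 3 without culture 2 of atRA and 4 without any one of the other cultures. Cav2 and Ehd2, which belong to caveolae, pits of the cell membrane, were among the 15 lowest genes. Cav2, a caveolin, was at 1.62, 1.50, 2.19 and 2.26 RPKM in the atRA libraries, against 13.1, 10.9, 13.2 and 11.9 RPKM in the DMSO libraries. Ehd2, the ATPase at the caveolar neck, was at 0.785, 0.562, 0.669 and 0.667 RPKM in the atRA libraries, against 4.62, 5.18, 6.76 and 6.14 RPKM in the DMSO libraries. Both stayed below the DMSO libraries in each atRA library, with log2 fold changes of -2.21 ± 0.31 and -1.99 ± 0.17. Cav1 and Cavin1, further caveola genes, were chosen after their values were seen, and no list of caveola genes was counted. Cav1 had 4 to 6 reads per library with atRA and 125 to 183 with DMSO (-1.65 ± 0.26), and Cavin1 fell by 1.67 on the log2 scale, a call that ended with the near-empty library kept.

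Basement membrane and integrin genes were lower in 4 of 24 cases and higher in 0 (median -0.37). Col4a1 and Col4a2, which share a promoter region on chromosome 8 and build collagen IV, both fell. Col4a1 had 1.89 ± 0.557 RPKM with atRA and 15.9 ± 2.64 RPKM with DMSO (-2.55 ± 0.22). Col4a2 had 1.97 ± 0.633 RPKM with atRA and 15.6 ± 3.30 RPKM with DMSO (-2.48 ± 0.22). Both changes were of like size. The further matrix collagen Col18a1 had 1.51 ± 0.164 RPKM with atRA and 4.34 ± 0.555 RPKM with DMSO (-1.08 ± 0.21). The integrin chain Itgb6 had 5.34 ± 0.586 RPKM with atRA and 10.5 ± 0.464 RPKM with DMSO (-0.86 ± 0.22). With the near-empty library kept, only Col4a1 and Col4a2 were called, and Itgb6 was also not called without any one of the 4 cultures.

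Genes at home in squamous epithelium, the layered lining of skin and oesophagus, were lower in 9 of 18 cases and higher in 0 (median -0.64). Cnfn, a protein of the cornified envelope, had 0 to 5 reads per library with atRA and 111 to 268 with DMSO, and was the lowest of the called genes on the log2(RPKM + 1) scale (-3.14 ± 0.32, adjusted p = 4.3e-06). Tgm1, the transglutaminase that seals this envelope, had 8 to 16 reads with atRA and 319 to 512 with DMSO (-2.45 ± 0.19). Krt4, a keratin of the oesophagus, had 7.26 ± 0.396 RPKM with atRA and 29.1 ± 0.121 RPKM with DMSO (-1.86 ± 0.35). Of 14 tested keratins, a list not confined to squamous epithelium, 6 were lower and 0 higher. Krt4, Krt5 and Krt14 were lower and are on both the keratin and the squamous list. Cnfn is also on the fetal-like list, so the counts of these lists overlap. From the keratin list, Krt7 had 349.9 ± 8.60 RPKM with atRA and 761 ± 139.7 RPKM with DMSO (-1.11 ± 0.21, adjusted p = 0.0022). Krt80 had 0.367 ± 0.0795 RPKM with atRA and 2.36 ± 0.326 RPKM with DMSO (-1.29 ± 0.12). The squamous list had 5 calls with the near-empty library kept and 4 without culture 2 of DMSO, and the keratins 3 without culture 2 of DMSO, where Krt7 was not called.

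Annexins and S100 proteins, calcium-binding families, were lower in 8 of 22 cases and higher in 1 (median -0.75). Anxa8, one of the lower genes, is also on the fetal-like list. S100a6 was at 251, 266, 244 and 232 RPKM in the atRA libraries, against 929, 1008, 1133 and 982 RPKM in the DMSO libraries. The atRA libraries were all lower (-2.02 ± 0.40, adjusted p = 0.0028). S100a7a, a skin-type S100 gene that is not on this list, had 1.66 ± 0.166 RPKM with atRA and 12.7 ± 4.29 RPKM with DMSO (-2.33 ± 0.36). The annexin Anxa1 had 42.1 ± 6.37 RPKM with atRA and 202 ± 12.5 RPKM with DMSO (-2.24 ± 0.52), and its call ended without culture 1 of atRA and without culture 2 of DMSO. The list had 5 lower calls without culture 1 of atRA and 5 without culture 2 of atRA. Wfdc2 (chromosome 2, 164562715 to 164568510), a secreted protease inhibitor, was at 3.05, 6.51, 7.05 and 4.78 RPKM in the atRA libraries, against 37.1, 43.5, 54.7 and 47.7 RPKM in the DMSO libraries. It was the second lowest of the called genes on that scale (-2.92 ± 0.27, adjusted p = 1.8e-06). Ly6c1 and Ly6c2, near-identical neighbours, had -2.29 ± 0.39 and -1.95 ± 0.43, and the Ly6c2 call ended without culture 1 of atRA and without culture 2 of DMSO.

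The same comparison was made on the other days. Day 1 had 240 genes higher (1.93%) and 191 lower (1.53%) with atRA, 3.46% in all. Day 4 had 446 higher (3.58%) and 915 lower (7.35%), 10.9% in all, and day 5 had 266 higher (2.14%) and 360 lower (2.89%), 5.03% in all. The effect on day 3 minus that on another day was tested as an interaction term in the same fit. Each effect is against the DMSO group of its own day, so a change in either group enters the difference. The labels set the removal of CHIR99021, Y-27632 and Wnt3a medium on day 3, so days 4 and 5 also differ in medium. Of the tested genes 82 differed between day 3 and day 1 (0.659%), 38 between day 3 and day 4 (0.305%) and 329 between day 3 and day 5 (2.64%). The day 3 effect was the higher for 67 of these genes against day 1 (0.538%), 22 against day 4 (0.177%) and 246 against day 5 (1.98%), and the lower for 15 (0.121%), 16 (0.129%) and 83 (0.667%). With the near-empty library kept, these counts were 29, 5 and 64 higher and 5, 5 and 16 lower. PPAR targets were higher in 20 cases on day 1, 39 on day 4 and 33 on day 5, with 0 lower on each day and median log2 fold changes of 0.47, 1.19 and 0.95. The day 3 effect was larger for 10 of the 46 and smaller for 0 against day 1, larger for 1 and smaller for 5 against day 4, and larger for 9 and smaller for 4 against day 5.

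For some digestive enzymes and genes of fat packaging the effect was larger on day 3, against days 1 and 5 more than against day 4. Brush border enzymes had 3 higher calls on day 1, 7 on day 4 and 2 on day 5, and the day 3 effect was larger than on these days for 7, 3 and 6 of the 21 and smaller for 0. Apolipoprotein genes had 1, 10 and 1 higher calls on days 1, 4 and 5, with a larger day 3 effect for 4, 1 and 8 of the 20. Xenobiotic genes had 10, 11 and 4 higher and 0, 3 and 8 lower calls on these days, and the day 3 effect was larger than on these days for 6, 6 and 28 of the 44 and smaller for 0. Fabp1 had log2 fold changes of 5.02 ± 0.36 on day 1, 7.12 ± 0.36 on day 3, 3.27 ± 0.36 on day 4 and 1.58 ± 0.36 on day 5. The day 3 effect exceeded that of day 4 by 3.84 ± 0.50 (adjusted p = 0.0022) and that of day 5 by 5.54 ± 0.50 (adjusted p = 1.1e-05). Sis had -0.26 ± 0.22, 2.94 ± 0.22, 0.58 ± 0.22 and -0.84 ± 0.22 on days 1, 3, 4 and 5.

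Isx and Dhrs3 had their larger effect on day 1. The Isx effect was 6.63 ± 0.14 on day 1, 1.23 ± 0.14 on day 3, 0.89 ± 0.14 on day 4 and 1.18 ± 0.14 on day 5. Day 3 lay below day 1 by 5.40 on the log2 scale (adjusted p = 2.9e-11), a call that ended with the near-empty library kept, at -3.56 (adjusted p = 0.14). Dhrs3 had 3.54 ± 0.18 on day 1, and day 3 lay below it by 1.70 (adjusted p = 0.004). Of the fetal-like list, 4 genes were lower on day 1, 14 on day 4 and 11 on day 5, with 0 higher, and the day 3 effect was the more negative for 2 genes against day 1 and 2 against day 5. Wfdc2 had -0.65 ± 0.27 on day 1, and its day 3 effect was lower by 2.27 (adjusted p = 0.0088).

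**Figure D3:**
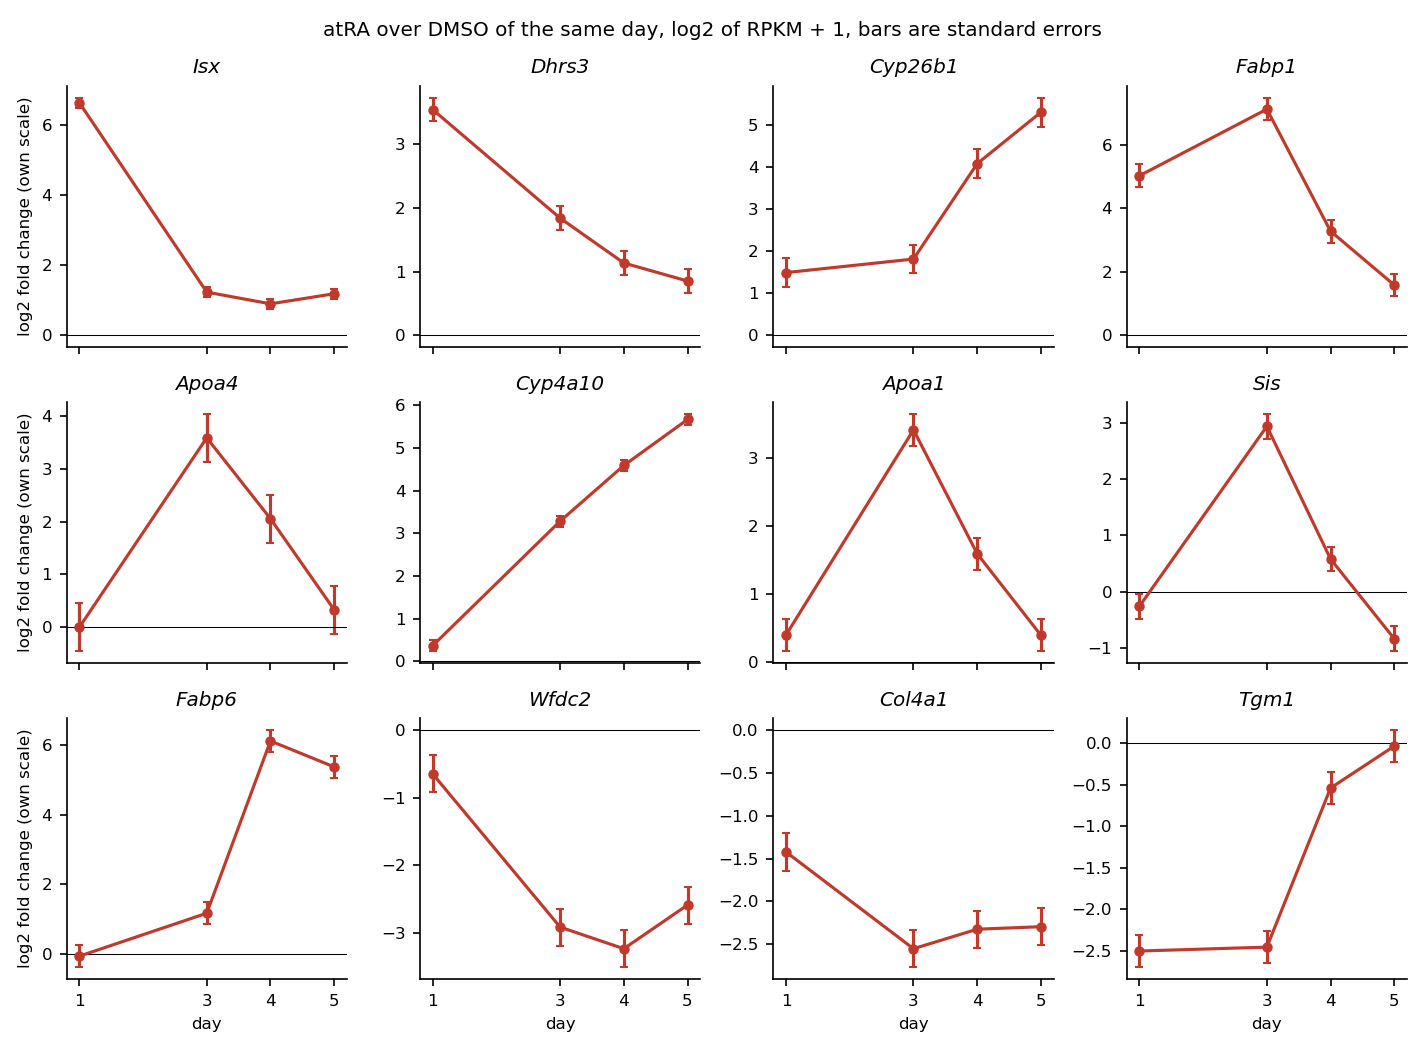
Log2 fold change of atRA against DMSO with its standard error on days 1, 3, 4 and 5 for 12 genes. Isx and Dhrs3 have their largest effect on day 1, while Fabp1, Apoa1 and Sis have theirs on day 3.

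On day 3 RXRi against the same DMSO libraries called 2291 genes higher (18.4%) and 3166 lower (25.4%), 43.9% in all. Both effects share their DMSO samples, so only values are set side by side. The fetal-like list had 0 higher and 14 lower genes with atRA, and 24 higher and 0 lower with RXRi. The squamous list had 0 higher and 9 lower with atRA, and 13 higher and 1 lower with RXRi. Brush border enzymes had 11 higher and 0 lower with atRA, and 1 higher and 12 lower with RXRi. Goblet genes had 13 higher and 1 lower with atRA, and 4 higher and 15 lower with RXRi. PPAR targets had 32 higher and 0 lower with atRA, and 17 higher and 10 lower with RXRi. DNA replication genes, with no call under atRA, had 0 higher and 26 lower with RXRi.

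**Figure D4:**
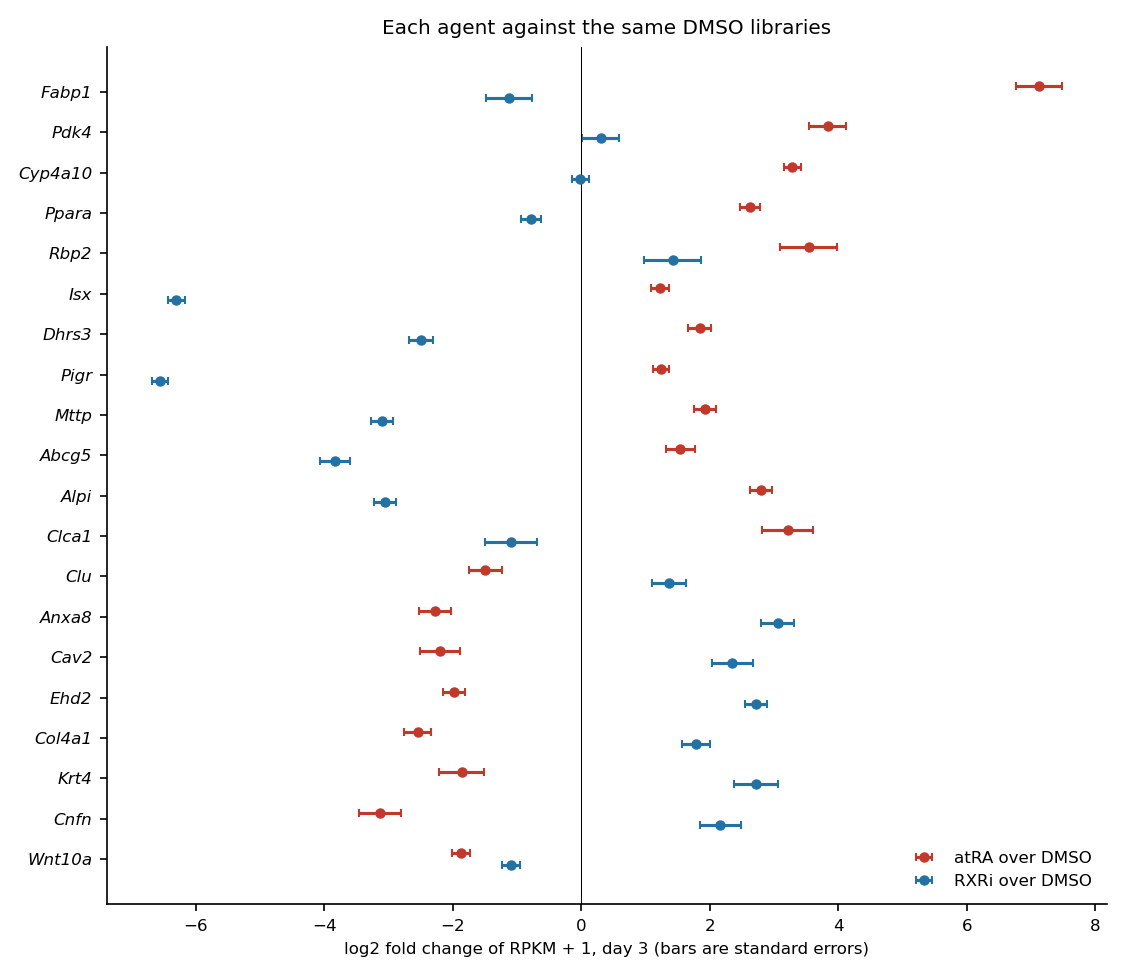
Log2 fold change on day 3 with its standard error for 20 genes, with atRA against DMSO in red and RXRi against the same DMSO libraries in blue. Isx, Pigr and Clca1 lie above 0 with atRA and below it with RXRi, and Clu and Anxa8 the other way round.

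Clu had a log2 fold change of -1.49 ± 0.26 with atRA and 1.37 ± 0.26 with RXRi, and Clca1 had 3.21 ± 0.40 with atRA and -1.10 ± 0.40 with RXRi. Both genes moved in opposite directions under the 2 agents. Rbp2 had 3.54 ± 0.44 with atRA and 1.42 ± 0.44 with RXRi, and rose under either agent. Fabp1 had 7.12 ± 0.36 with atRA and -1.12 ± 0.36 with RXRi, Isx 1.23 ± 0.14 with atRA and -6.30 ± 0.14 with RXRi. Compared directly, atRA against RXRi on day 3 gave 3129 genes higher (25.1%) and 2765 lower (22.2%), 47.4% in all. In that test 31 PPAR targets were higher and 1 lower, 16 goblet genes were higher and 4 lower, and 0 fetal-like genes were higher and 27 lower with atRA. Doses differed, at 10 µM for atRA and 5 µM for RXRi.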

How the data were processed

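Messenger RNA libraries of intestinal organoids were made by the submitters, whose processing notes name bcl2fastq 2.17, STAR 2.5.2b and mm10 (the submitters' processing notes give no settings). Of the counting tool, annotation and strand use, the labels say nothing: not given in the sources used here. Reads of overlapping, antisense and near-identical genes may therefore be mixed. Per the file headers, the authors deposited RPKM values, reads scaled to gene length and to the library's total, in a column per library, and the 52 columns were matched to the labels by title. Since each library's total is shared among its genes, a large rise of some lowers the others. Values of all 19708 genes above 0 were whole multiples of 1 read (tolerance 0.001 reads). These reads gave the depths and 1 alternative.

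Values were taken as log2(RPKM + 1), and duplicates of a culture were averaged, for 26 culture means. Testing took the 12443 of 24116 genes that reached 1 RPKM in 4 or more libraries. limma 3.58.1 in R 4.3.3 (trend and robust options) was fitted over all 13 groups with 13 residual degrees of freedom, and p-values were adjusted by Benjamini-Hochberg for each comparison, with 0.05 as the threshold. Effects of 2 days were compared by an interaction term. The fit was tested on simulated data. A library of the day 1 DMSO group, culture 1, held 12443 reads, by coincidence the number of genes tested. It was left out, so that this culture rested on 1 library. Chi-square per degree of freedom between duplicates of the day 3 groups was 2.58 to 8.93, above counting error, and 18.9 and 20.6 between cultures.

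The members and the gene lists were chosen with earlier results of these data known. Named genes were the 15 largest changes each way among called genes with 1 sign in both cultures, predicted models aside, the retinoid lists in full, at most 6 members of each other list by smallest p, and the 5 largest interactions each way. Some genes that this rule names are not reported here. Other members are named with their values. Of the tested genes, 12428 matched the RefSeq gene table of GRCm38.p6 by Entrez identifier, and its coordinates are 1-based. Cultures with the same number come from the same animal, per the labels, which pairs the samples. Deviations of same-numbered cultures from their group means correlated with r = 0.42 between the day 3 atRA and DMSO groups, and the median over 78 group pairs was 0.15 (-0.32 to 0.76). The pairing entered as an alternative, beside other scalings, filters, pseudocounts, sets of groups and libraries.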

Additional observations from a re-analysis of the deposited data

Results flagged for a closer look

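The genes below were marked because the atRA effect on day 3 differed from that on another day by an interaction term in limma, and each value is the log2 fold change on day 3 minus that on the other day. Day 1 values rest on 1 DMSO library of culture 1 and 2 of culture 2.

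Against day 1 the day 3 effect was lower for 5 of the named genes. Isx differed by -5.40, with an effect of 1.23 on day 3 and 6.63 on day 1. Dhrs3 differed by -1.70, the squamous keratin Krt4 by -2.93, Wfdc2 by -2.27 and Plekhs1 by -1.84. Krt4 had -1.86 on day 3 and 1.07 on day 1, where it was not called. With the near-empty library kept, the differences of Isx and Krt4 were not called (adjusted p = 0.14 and 0.18).

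The day 3 effect was higher than on day 1 for Apoa1 by 3.02, for Sis by 3.20, for Apoa4 by 3.60 and for Cyp2b10 by 3.65. On reads recovered from RPKM, the differences of Apoa4 and Cyp2b10 were not called (adjusted p = 0.18 and 0.2). The difference of Apoa4 was also not called with the near-empty library kept, at 2.61 (adjusted p = 0.28).

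Against day 4, Fabp1 was higher by 3.84, Ctrb1 by 2.64, Sis by 2.36, Cyp2c66 by 2.35 and Adh1 by 2.23. Fabp6 differed by -4.95, the calcium-binding S100g by -2.07, the fatty acid receptor Cd36 by -1.93, Tgm1 by -1.91 and Prxl2a by -1.80. Fabp6 rose by 6.12 on day 4 and by 1.17 on day 3, at 69 reads in the 4 atRA libraries. S100g was not called on day 3 (-0.24) and rose by 1.84 on day 4.

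Against day 5, Fabp1 was higher by 5.54, Ctrb1 by 4.58, Cyp2c29 by 4.13, Cyp2b10 by 4.10 and Leap2 by 3.89. Fabp6 differed by -4.20, Cyp26b1 by -3.48, Tgm1 by -2.42, Cyp4a10 by -2.38 and S100g by -2.33. Ctrb1, a pancreatic enzyme gene, was not called on day 3 (0.04) and was lower with atRA on day 5 (-4.54).

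For genes near 0 in one group these differences depend on the scale. On recovered reads the day 3 minus day 5 value of Cyp26b1 was -0.26 and that of Cyp4a10 0.07, and the day 3 minus day 4 value of Cd36 was 0.61 and of Tgm1 -0.52, none of them called. The differences of Fabp6, Ctrb1, Leap2, Cyp2c29 and Adh1 and the day 5 difference of Tgm1 were not called on that scale either, with adjusted p of 0.059 for Adh1 and 0.059 for Leap2. With the near-empty library kept, the day 4 differences of Adh1, Cd36, Ctrb1, Prxl2a, S100g and Tgm1 and the day 5 difference of Cyp2c29 were not called.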

How the results depend on the processing

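Pairing the cultures by animal gave 594 genes higher and 615 lower on day 3, with 1071 of the 1080 calls shared. Of the named genes only Rnf43 changed its call on day 3, which it lost (adjusted p = 0.051). With the near-empty library kept the counts were 245 and 133, with 51 named calls lost. The 3 groups of day 3 alone gave 759 and 887. Leaving out 1 culture gave 299 to 436 higher and 255 to 378 lower. Counts stayed within 1.5 times of 538 and 542 under a pseudocount of 0.1 RPKM, other filters, median-of-ratios scaling, 2 groups only and single duplicates, and on recovered reads with voom weights (541 and 602), an alternative added after seeing the data.

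For day 3 minus day 1, higher and lower counts were 29 and 5 with the near-empty library kept, 21 and 8 on recovered reads, 37 to 40 and 7 to 8 with a culture left out, and 25 lower with the pairing. For day 3 minus day 4 they were 5 and 5 with that library, 4 lower on recovered reads, 7 to 16 and 5 to 10 with a culture left out, and 38 higher with the pairing. For day 3 minus day 5 they were 64 and 16 with that library, 31 lower on recovered reads, and 94 to 210 and 27 to 76 with a culture left out.

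Signs of some uncalled day 3 values near 0 turned. With a culture left out, log2 fold changes ranged from -0.25 to 0.082 for Cdx1, -0.19 to 0.11 for Cdx2, -0.065 to 0.14 for Ctrb1, -0.28 to 0.11 for Mki67, -0.0056 to 0.23 for Nrip1, -0.26 to 0.0029 for Olfm4, -0.16 to 0.016 for Rdh5, -0.14 to 0.11 for Rxrb and -0.27 to 0.34 for Sct. First duplicates gave 0.0090 for Cdx2. Second duplicates gave -0.040 for Ctrb1, 0.16 for Rdh5, -0.012 for Rxra and 0.024 for Rxrb, and median-of-ratios scaling gave 0.016 for Rxrb. Signs of 2 called differences between days also turned on recovered reads. The day 3 minus day 4 value of Cd36 was 0.61, against -1.93 on log2(RPKM + 1), and the day 3 minus day 5 value of Cyp4a10 was 0.070, against -2.38. The cause was not tested. A planned edgeR test was not run, and voom on the recovered reads took its place.

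At an unadjusted p under 0.05 there were 2376 genes on day 3. The p-values rest on 2 cultures a group, a value of 3 reads or fewer lies at the floor of counting, and the smallest change within reach of the test was not measured.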

Other observations

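Genes of further groups changed on day 3. Of 19 tested genes of the hypoxia and NRF2 responses, 5 were higher with atRA and 0 lower, all 5 of them genes of the antioxidant response. The glutathione transferase Gsta3, a member of a family of close copies, had 206 ± 4.65 RPKM with atRA and 94.2 ± 13.8 RPKM with DMSO (1.13 ± 0.22, adjusted p = 0.0028, limma), and the glutamate-cysteine ligase subunit Gclm had 64.7 ± 0.177 RPKM with atRA and 40.1 ± 6.33 RPKM with DMSO (0.68 ± 0.14, adjusted p = 0.0038). The list had 1 call with the near-empty library kept, 1 without culture 2 of DMSO, 2 without culture 1 of DMSO and 2 without culture 2 of atRA. Of 21 MHC and interferon genes 4 were higher and 0 lower, H2-Q1, H2-Q2, H2-T3 and Irf1, and 0 of the list were called with the near-empty library kept or without culture 1 of atRA, culture 1 of DMSO or culture 2 of DMSO, and 1 without culture 2 of atRA. Arg2, the mitochondrial arginase, had 12.8 ± 2.95 RPKM with atRA and 1.71 ± 0.134 RPKM with DMSO (2.33 ± 0.33, adjusted p = 0.00014). Of 11 stomach genes Gkn3 was higher, at 11.7 ± 2.02 RPKM with atRA and 2.68 ± 0.0863 RPKM with DMSO (1.81 ± 0.33), and Vsig1 lower, at 1.19 ± 0.127 RPKM with atRA and 4.62 ± 1.46 RPKM with DMSO (-1.34 ± 0.22).

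The order of the largest changes depended on the scale. On log2(RPKM + 1) Fabp1 led with 7.12, against 3.83 for Pdk4 and 3.28 for Cyp4a10. On recovered reads Fabp1 had 7.10, Cyp4a10 8.31 and Pdk4 8.65, where the last 2 values depend on the small count added to each library.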
